A study of Homo sapiens with 6 samples.

Results

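The genes described here encode the structural subunits of the proteasome, the protease that degrades ubiquitin-tagged proteins, together with the chaperones that assemble it. They were picked by gene symbol, with earlier results of these data known, as the alpha subunits, the non-catalytic beta subunits, the ATPases and non-ATPase subunits of the regulatory particle, the assembly chaperones and the regulator PSMF1. The rule found 40 genes among the 17918 of the table: 8 of the alpha ring, 4 of the beta ring, 10 of the base, 9 of the lid, 8 chaperones and PSMF1. RNA was sequenced from KMS11, a human multiple myeloma line, as 3 libraries that carried a short hairpin RNA (shRNA) directed at CRIP1 and 3 that carried a scramble shRNA. The scramble group is labelled as wild type, and the labels name no drug or other treatment for either. The series calls the repeats biological but does not say how many hairpin sequences, clones or cultures stand behind each group, and a p-value here therefore reflects only how far these libraries spread, which may be technical.

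The proteasome core is a barrel of stacked rings. Outer alpha rings form a gate, and inner beta rings hold the proteolytic sites, which lie in subunits other than the structural ones described here. A regulatory particle caps the barrel. Its base holds a ring of ATPases that unfold substrates, together with scaffold subunits and ubiquitin receptors, and its lid removes the ubiquitin chain. Dedicated chaperones guide the alpha ring and the ATPase ring into place and leave before the particle is complete. Plasma cells, which secrete large amounts of antibody, rely heavily on this protease, and proteasome inhibitors are used to treat myeloma.

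Library totals were 17348822 to 18005318 estimated counts in CRIP1 shRNA libraries and 16971454 to 17243017 in scramble libraries. CRIP1 itself stood at 127 to 134 TPM after knockdown and at 2791 to 3327 TPM in scramble libraries (TPM, an abundance per unit of transcript length that sums to the same total in all libraries). Of 9 plasma cell genes, which summed to 3792 to 4048 TPM after knockdown and 8371 to 8811 TPM in scramble libraries (8 tested, 3 higher and 5 lower), JCHAIN, TNFRSF17 and XBP1 stood at 549 TPM or more in every library, whereas SLAMF7 was at or below 0.2 TPM. Markers of another lineage differed between the groups: 13 erythroid genes summed to 738 to 747 TPM after knockdown and to 0.15 to 0.23 TPM in scramble libraries, where 12 of them had 0 counts. Summed TPM after knockdown and in scramble libraries was 83.99 to 90.1 against 10.3 to 13.4 for the 6 epithelial genes in the table (KRT19 at 0 in scramble), 5.34 to 6.23 against 7.05 to 7.65 for 5 fibroblast genes (DCN at 0 in every library), 7.15 to 7.81 against 0.91 to 1.27 for 5 myeloid genes and 1.37 to 1.97 against 0.28 to 0.63 for 6 T and NK cell genes (none passed the filter, NKG7 at 0 in every library). The part of these other lineages in the proteasome values was not tested. In bulk libraries, fewer cells of a type and less RNA per cell cannot be told apart.

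Proteasome subunit genes moved in both directions, and most of the movement was small. All 40 members passed the filter on low counts, with 253 to 20033 estimated counts per library. After knockdown 14 members were higher and 20 lower at an adjusted p below 0.05 (edgeR's quasi-likelihood test, adjusted over 12612 genes), and 6 were not called. These 34 are 85.0% of the members, against 77.6% of all genes tested, of which 39.4% were higher and 38.1% lower. Changes of at least 0.5 on the log2 scale were seen in 9 members, or 22.5%, against 41.3% of all genes tested (21.2% higher and 20.1% lower). Tested against a 1.2-fold change, 7 members (17.5%) were higher and 9 (22.5%) lower, or 40.0%, against 27.1% and 25.8% of all genes tested, 53.0% in all. Of the 9 members past 0.5, PSMD10, PSMA8, PSMC2 and PAAF1 were higher and PSMD2, PSMD1, PSMD13, PSMB3 and PSMD8 lower. The median log2 fold change over the 40 members was -0.084, against 0.011 over all genes tested. The groups did not overlap in 35 members in CPM scaled by TMM (library-size scaled counts), or 87.5%, against 78.9% of all genes tested.

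Small changes depended on the scaling. On log2(TPM + 1) the median of all genes lay at 0.12, and 19 members were higher and 12 lower, against 47.5% and 29.9% of the genes tested there (77.4% in all). Members lay above their change in counts there by 0.041 to 0.32, with a median of 0.14. With a trend in GC content removed from each library the median of all genes was -0.083, and 11 members were higher and 22 lower, against 33.9% and 45.1% of genes (79.0% in all). In each of these 3 analyses 18 of the 40 members lay above the median of all genes, a count that need not be of the same genes. Across the members, the log2 fold change and transcript GC content had a Pearson correlation of -0.46 (Spearman -0.52, n = 40 genes from the same 6 libraries), and -0.28 (Spearman -0.29) with the GC trend removed. Over 12546 genes tested it was -0.059 (Spearman -0.16). The 14 higher members had a median GC content of 45.6%, and the 20 lower members 52.6%. Under each of the 17 alternative analyses, 7 members were called higher (PSMA4, PSMA8, PSMC2, PSMD12, PSMG4, PSMD10 and PAAF1) and 9 lower (PSMB3, PSMC3, PSMD1, PSMD2, PSMD3, PSMD8, PSMD11, PSMD13 and PSMD9). The test against a 1.2-fold change is among the 17 and by itself gave these 7 and 9, while it called 53.0% of all genes. The share of all genes called under every alternative was not computed.

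**Figure D1:**
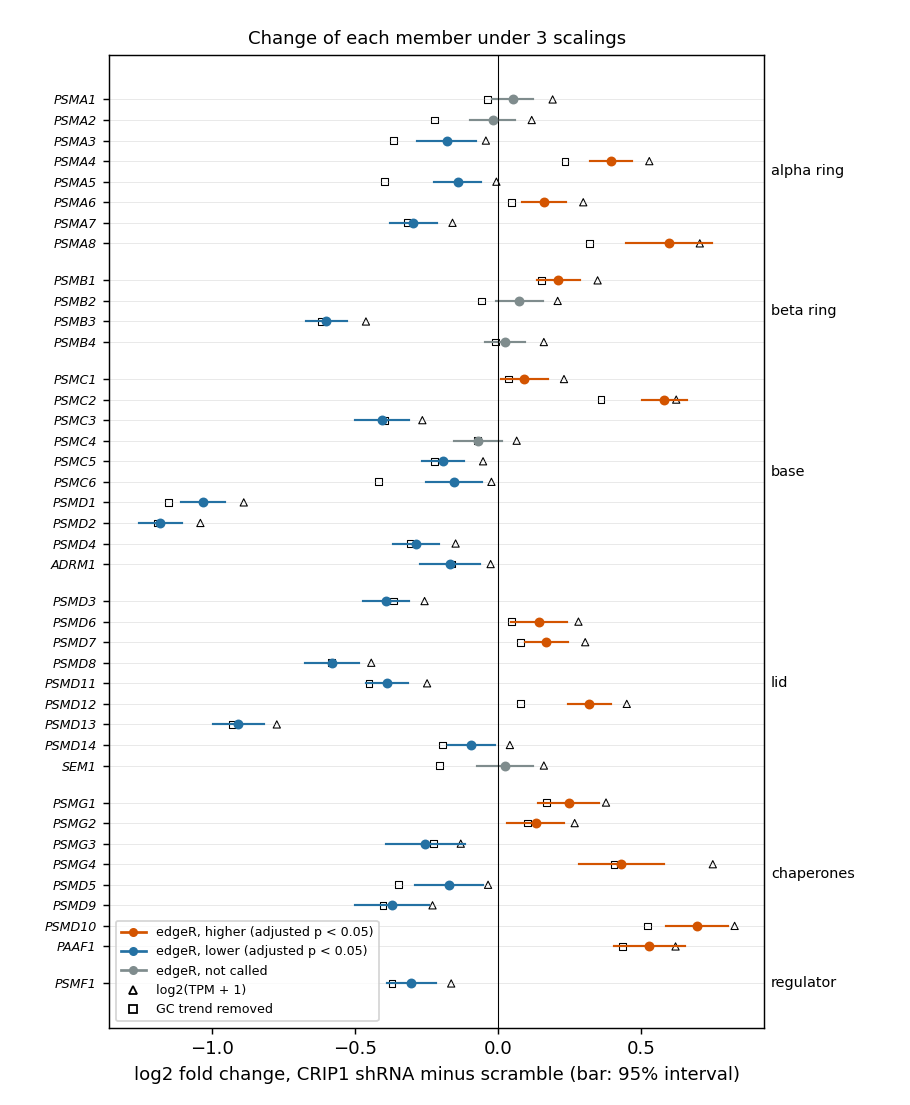
Log2 fold change of each of the 40 members, CRIP1 shRNA minus scramble, by structural group. Circles with bars are the edgeR estimate and its 95% interval, coloured by call, open triangles are log2(TPM + 1) and open squares have the GC trend removed. PSMD2, PSMD1 and PSMD13 lie furthest to the left under all 3, between -1.19 and -0.77.

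NFE2L1, a transcription factor that drives proteasome genes when the protease is impaired, averaged 809 ± 15.7 TPM after knockdown and 253 ± 10.3 TPM in scramble libraries (SD, n = 3 each), a log2 fold change of 1.55 (SE 0.034). It binds an antioxidant response element whose core, TGACNNNGC, was searched on both strands of RefSeq promoters (build GRCh38.p14), from 250 bases before to 50 after each gene start. Promoters were matched for 36 members. The core stood in 10 of them (27.8%), against 14.5% of the 14265 promoters matched to genes of the table and 13.6% of all 27305. It was in 0 of 7 promoters of the alpha ring, 1 of 3 of the beta ring, 3 of 9 of the base, 2 of 9 of the lid and 4 of 7 of the chaperones. Members with the core went both ways. Of the 10, 3 were higher (PSMD12, PSMG1 and PSMG2), 6 lower (PSMB3, PSMD1, PSMD3, ADRM1, PSMD5 and PSMD9) and PSMC4 was not called. Of the 26 without it 10 were higher, 11 lower and 5 not called. Among all genes tested 39.4% were higher and 38.1% lower. The median log2 fold change was -0.17 over members with the core and 0.022 over those without it, a difference that was not tested. A match is only a run of letters in this window, and binding was not measured.

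Promoters of 4 members are shown, 3 with the core, in capitals, and 1 without, since members with the core went both ways and members of both kinds fell. PSMB3 lies at chr17:38752491-38752790 (plus strand) with the core centred 100 bases before the gene start (position -100), PSMD1 at chr2:231056617-231056916 (plus strand) with the core at position 44 after the start, and PSMD12 at chr17:67366528-67366827 (minus strand) with the core at position -161. PSMD2 lies at chr3:184298991-184299290 (plus strand) and holds none. In all 3 the core reads forward along the gene. PSMB3 and PSMD1 fell, PSMD12 rose (by 0.077 with the GC trend removed), and PSMD2 fell.
PSMB3: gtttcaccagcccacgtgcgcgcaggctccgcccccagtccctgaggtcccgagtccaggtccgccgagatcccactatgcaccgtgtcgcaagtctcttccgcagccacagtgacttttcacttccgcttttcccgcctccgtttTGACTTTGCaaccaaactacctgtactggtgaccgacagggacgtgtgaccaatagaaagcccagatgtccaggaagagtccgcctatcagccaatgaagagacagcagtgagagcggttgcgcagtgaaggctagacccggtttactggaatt
PSMD1: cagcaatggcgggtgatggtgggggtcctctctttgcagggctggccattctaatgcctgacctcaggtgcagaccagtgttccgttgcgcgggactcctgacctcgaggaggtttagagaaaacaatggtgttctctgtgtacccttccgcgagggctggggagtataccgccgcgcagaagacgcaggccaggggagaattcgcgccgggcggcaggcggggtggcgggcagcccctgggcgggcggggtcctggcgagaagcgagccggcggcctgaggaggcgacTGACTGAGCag
PSMD12: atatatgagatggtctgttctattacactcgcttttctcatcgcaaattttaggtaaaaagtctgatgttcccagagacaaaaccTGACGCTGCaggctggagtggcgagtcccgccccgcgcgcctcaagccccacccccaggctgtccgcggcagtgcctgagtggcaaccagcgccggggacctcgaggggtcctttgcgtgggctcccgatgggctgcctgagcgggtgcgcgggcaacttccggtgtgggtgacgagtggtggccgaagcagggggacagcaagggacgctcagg
PSMD2: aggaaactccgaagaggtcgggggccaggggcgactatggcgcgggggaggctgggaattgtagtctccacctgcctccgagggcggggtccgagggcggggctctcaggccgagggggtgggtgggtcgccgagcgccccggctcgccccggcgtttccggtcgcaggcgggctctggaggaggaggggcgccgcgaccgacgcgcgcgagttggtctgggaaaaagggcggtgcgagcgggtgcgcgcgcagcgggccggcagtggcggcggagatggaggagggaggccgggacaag

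In the alpha ring, whose subunits form the outer gate of the core, 3 of 8 members were higher, 3 lower and 2 not called, with a median log2 fold change of 0.015. On log2(TPM + 1) the split was 5 higher and 1 lower. Among all genes tested 39.4% were higher and 38.1% lower in counts, and 47.5% and 29.9% on log2(TPM + 1). PSMA4, the alpha3 subunit whose tail helps to close the gate in yeast, was at 908, 867 and 859 TPM after knockdown and at 606, 617 and 602 TPM in scramble libraries. Every knockdown library lay above every scramble library (log2 fold change 0.39, SE 0.035, adjusted p = 2.68e-09, edgeR). PSMA7, the alpha4 subunit, was at 685, 739 and 728 TPM after knockdown and 783, 810 and 811 TPM in scramble libraries, so that the groups were apart in the other direction (-0.30, SE 0.039, adjusted p = 7.09e-07, edgeR). PSMA8 encodes alpha4s, the testis form that takes the place of alpha4 in the proteasome of sperm precursors. It was at 31.6, 29.2 and 29.5 TPM after knockdown and 16.7, 18.8 and 18.9 TPM in scramble libraries, again without overlap (0.60, SE 0.072, adjusted p = 2.29e-07, edgeR). With the GC trend removed the rise was 0.32 for PSMA8 and 0.23 for PSMA4, both still called. Its level remained small beside that of its paralog, at 0.042 ± 0.004 of PSMA7 after knockdown and 0.023 ± 0.001 in scramble libraries (ratio of TPM, SD, n = 3 each), and how the authors' counting split reads between these related genes is uncertain.

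The other alpha genes differed less. PSMA6 (alpha1) rose by 0.16 on the log2 scale (SE 0.036), at 385 to 395 TPM after knockdown and 312 to 321 TPM in scramble libraries, but its change was 0.045 with the GC trend removed and was then not called (adjusted p = 0.213, edgeR). PSMA3 (alpha7) fell by 0.18 (SE 0.049) and PSMA5 (alpha5) by 0.14 (SE 0.039). Their TPM ranges overlapped, at 227 to 250.5 against 234 to 258 TPM for PSMA3 and 193 to 210 against 196 to 212 TPM for PSMA5, knockdown against scramble, and neither was called on log2(TPM + 1). With the GC trend removed both falls were larger, 0.37 for PSMA3 and 0.40 for PSMA5. PSMA1 (alpha6; 0.049, 95% interval -0.021 to 0.12) and PSMA2 (alpha2; -0.020, 95% interval -0.099 to 0.058) did not pass the test, and the sign of both depended on the scaling: PSMA1 was at -0.037 with the GC trend removed and PSMA2 at 0.12 on log2(TPM + 1).

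**Figure D2:**
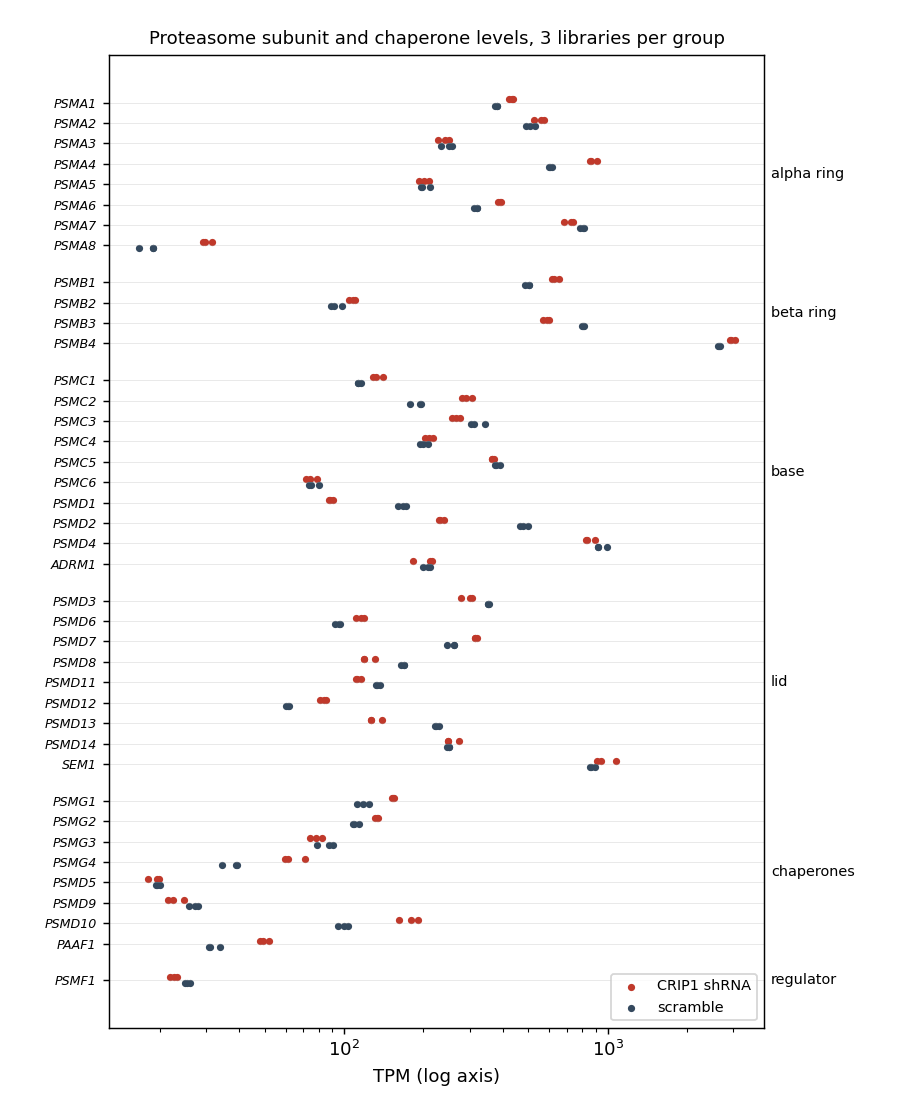
TPM of every member in each of the 6 libraries (horizontal log axis), CRIP1 shRNA in red above scramble in dark blue. PSMB4 is the most abundant member in every library, at 2634 TPM or more, and PSMA4, PSMC2, PSMD10 and PAAF1 sit to the right of scramble while PSMD1, PSMD2, PSMD13 and PSMB3 sit to the left.

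Of the 4 structural beta genes, 1 was higher, 1 lower and 2 not called, with a median of 0.048, against 39.4% and 38.1% of all genes. On log2(TPM + 1) 3 were higher and 1 lower, against 47.5% and 29.9%. PSMB3, the beta3 subunit, was at 598, 567 and 591 TPM after knockdown and at 814, 798 and 809 TPM in scramble libraries. All 3 knockdown values lay below all 3 scramble values (-0.60, SE 0.035, adjusted p = 2.16e-12, edgeR), a level 1.52-fold lower. PSMB1 (beta6) was at 656, 617 and 624 TPM after knockdown and 502, 503 and 485 TPM in scramble libraries, with all knockdown values above (0.21, SE 0.036, adjusted p = 2.65e-05, edgeR). The ratio of PSMB3 to PSMB1 was thus 0.926 ± 0.018 after knockdown and 1.62 ± 0.043 in scramble libraries (TPM, SD, n = 3 each). PSMB4, the beta7 subunit and the most abundant member, stood at 2928, 3034 and 2927 TPM after knockdown and 2651, 2634 and 2676 TPM in scramble libraries, without overlap, but its change in the edgeR fit on counts was 0.022 (95% interval -0.048 to 0.092). PSMB2 (beta4; 0.073, 95% interval -0.0089 to 0.16) did not pass the test (adjusted p = 0.0958, edgeR). It was called without CRIP1 shRNA replicate 1 (adjusted p = 0.0317) or scramble replicate 3 (adjusted p = 0.033), which makes 2 higher beta genes in place of 1.

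In the base of the regulatory particle 7 of 10 members were lower (70.0%, against 38.1% of all genes tested), 2 higher and 1 not called, with a median of -0.18. On log2(TPM + 1) 4 were lower and 2 higher, against 29.9% and 47.5% of all genes tested there. Against a 1.2-fold change 3 were lower and 1 higher, against 25.8% and 27.1% of genes. In both, the lower count came nearer to the share of all genes. The 2 scaffold subunits fell furthest of all 40 members. PSMD2 (Rpn1), which docks ubiquitin shuttle proteins and the deubiquitinase USP14, was at 239, 228 and 232 TPM after knockdown and at 500.3, 465 and 477 TPM in scramble libraries. Its level was 2.27-fold lower (-1.18, SE 0.036, adjusted p = 8.20e-17, edgeR). PSMD1 (Rpn2), which anchors the ubiquitin receptor ADRM1, was at 91.0, 87.9 and 88.6 TPM after knockdown and 167, 160.1 and 171 TPM in scramble libraries, or 2.05-fold lower (-1.03, SE 0.037, adjusted p = 1.04e-15, edgeR). For both genes the groups lay far apart. Of the ubiquitin receptors, PSMD4 (Rpn10) fell by 0.29 (SE 0.039), at 851 ± 36.9 TPM after knockdown and 944 ± 45.0 TPM in scramble libraries (SD, n = 3 each), and ADRM1 (Rpn13) fell by 0.17 (SE 0.050) with overlapping TPM, 182 to 215 after knockdown and 199 to 211 in scramble libraries. ADRM1 was not called on log2(TPM + 1) (adjusted p = 0.688, limma).

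The 6 ATPases of the base did not move together. PSMC2 (Rpt1) was at 307, 281 and 289 TPM after knockdown and 195, 178 and 196 TPM in scramble libraries, without overlap (0.58, SE 0.037, adjusted p = 1.44e-11, edgeR; 0.36 with the GC trend removed). PSMC3 (Rpt5), whose tail docks into the alpha ring, was at 256, 275 and 265 TPM after knockdown and 342, 313 and 304 TPM in scramble libraries (-0.41, SE 0.045, adjusted p = 6.90e-08, edgeR). PSMC5 (Rpt6) fell by 0.19 (SE 0.035) and PSMC6 (Rpt4) by 0.16 (SE 0.046), both not called on log2(TPM + 1), and the fall of PSMC6 was 0.42 with the GC trend removed. PSMC4 (Rpt3) did not pass the test (-0.072, 95% interval -0.16 to 0.011). PSMC1 (Rpt2) was called higher by a narrow margin (0.091, SE 0.039, adjusted p = 0.0412, edgeR). It was not called when CRIP1 shRNA replicate 1 (adjusted p = 0.224), scramble replicate 2 (0.144) or scramble replicate 3 (0.133) was left out, nor by DESeq2, without the filter or with the GC trend removed, leaving PSMC2 as the 1 higher member of the base.

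In the edgeR fit the scaffold and receptor genes of the base fell, ADRM1 only slightly, while its ATPases went both ways. Ratios within a library, which no scaling between libraries enters, describe the transcript levels of the base. Protein was not measured, and a GC trend that differs between libraries can still enter such ratios. The 4 non-ATPase genes summed to 1.040, 1.015 and 1.017 times the TPM of the 6 ATPases after knockdown, and to 1.40 times in each of the 3 scramble libraries. Of these 4 genes PSMD2 moved most in TPM, to a mean of 233 after knockdown from 481 in scramble libraries. The ratio of PSMD2 to PSMC2 was 0.797 ± 0.018 after knockdown and 2.54 ± 0.091 in scramble libraries (TPM, SD, n = 3 each). These pairs were picked after their values were seen, so the ratios are a description without a test.

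**Figure D3:**
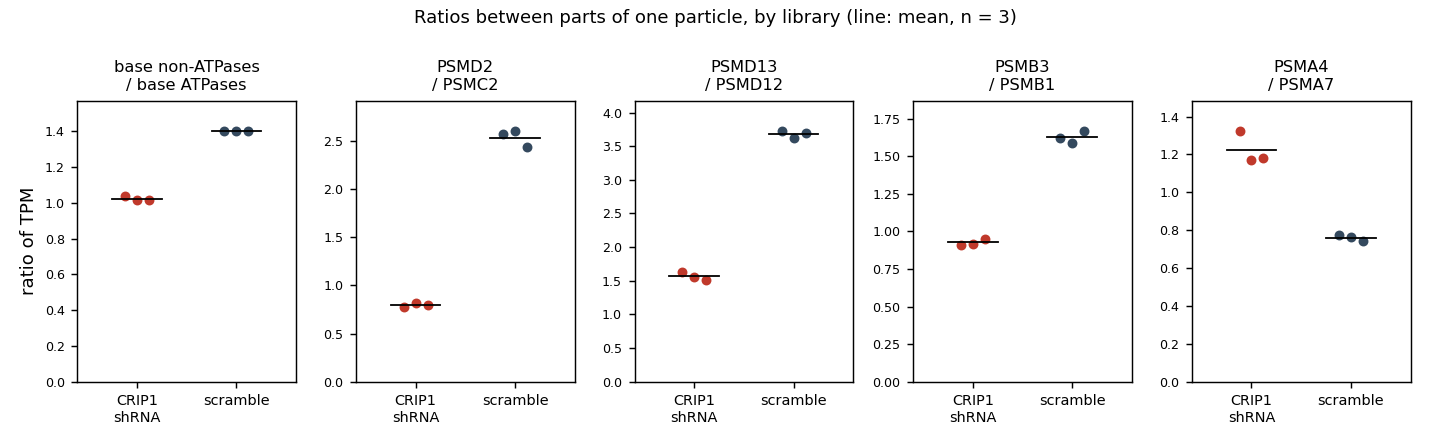
Ratios of TPM within each library, CRIP1 shRNA left of scramble, with points for libraries and a line for the mean of 3. The ratio of non-ATPases to ATPases of the base, PSMD2 to PSMC2, PSMD13 to PSMD12 and PSMB3 to PSMB1 are lower in all 3 knockdown libraries, and PSMA4 to PSMA7 is higher at 1.23 against 0.759.

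In the lid, 3 of 9 genes were higher, 5 lower and 1 not called, with a median of -0.095. On log2(TPM + 1) 4 were higher and 4 lower. The shares over all genes tested were 39.4% higher and 38.1% lower in counts, and 47.5% and 29.9% on log2(TPM + 1). PSMD13 (Rpn9) was at 139, 127 and 127 TPM after knockdown and 229.67, 221 and 223 TPM in scramble libraries, 1.88-fold lower with no overlap (-0.91, SE 0.042, adjusted p = 6.51e-14, edgeR). PSMD8 (Rpn12), the last subunit to join the lid in yeast, was at 119, 131 and 119 TPM after knockdown and 165, 169 and 169 TPM in scramble libraries (-0.58, SE 0.046, adjusted p = 3.63e-10, edgeR). PSMD3 (Rpn3) and PSMD11 (Rpn6), which both belong to the horseshoe of scaffold proteins in the lid, both fell by 0.39 (SE 0.038 for PSMD3 and 0.035 for PSMD11). PSMD12 (Rpn5), another member of that horseshoe, went the other way, at 85.7, 81.2 and 83.9 TPM after knockdown and 61.6, 61.0 and 60.3 TPM in scramble libraries (0.32, SE 0.037, adjusted p = 1.06e-07, edgeR). With the GC trend removed that rise was 0.077 (adjusted p = 0.0422, edgeR). The ratio of PSMD13 to PSMD12 was 1.57 ± 0.058 after knockdown and 3.68 ± 0.057 in scramble libraries (TPM, SD, n = 3 each).

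The catalytic subunit of the lid and its partner changed by less than 0.2 on the log2 scale in the edgeR fit. PSMD14 (Rpn11), the metalloprotease that cuts the ubiquitin chain off the substrate, was called lower by 0.095 (SE 0.039, adjusted p = 0.0331, edgeR) with overlapping TPM, 248 to 272 after knockdown and 246 to 251.1 in scramble libraries. Its sign turned on log2(TPM + 1), to 0.040, and 4 of the 6 fits with a library left out did not call it: those lacking CRIP1 shRNA replicate 2 (adjusted p = 0.0654), CRIP1 shRNA replicate 3 (0.191), scramble replicate 1 (0.0712) and scramble replicate 3 (0.0657). With the GC trend removed its fall was 0.19 and called. PSMD7 (Rpn8), its inactive partner, rose by 0.17 (SE 0.036), by 0.30 on log2(TPM + 1) and by 0.077 with the GC trend removed. PSMD7 was at 313 to 319 TPM after knockdown and 246 to 261 TPM in scramble libraries. PSMD6 (Rpn7) rose by 0.14 (SE 0.047), a call lost after GC correction (0.047, adjusted p = 0.32, edgeR) or without scramble replicate 2 (adjusted p = 0.0538). SEM1, the small acidic subunit, did not pass the test (0.023, 95% interval -0.076 to 0.12) and its direction depended on the scaling. It was called higher on log2(TPM + 1), at 0.16, and lower with the GC trend removed, at -0.21.

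Assembly chaperones had the highest median of the structural groups, 0.19. Of these 8 genes, 5 were higher and 3 lower, against 39.4% and 38.1% of all genes tested. On log2(TPM + 1) it was 5 and 1, against 47.5% and 29.9%. PSMD10 (gankyrin), which binds the ATPase PSMC4 during assembly of the base, was at 191, 162 and 179.7 TPM after knockdown and 104, 95.2 and 99.6 TPM in scramble libraries. This was the largest rise of the 40 members in the edgeR fit, 1.62-fold (0.69, SE 0.052, adjusted p = 1.51e-10). PAAF1, the partner of the ATPase PSMC5, was at 51.7, 49.0 and 47.9 TPM after knockdown and 31.0, 30.8 and 33.9 TPM in scramble libraries (0.53, SE 0.059, adjusted p = 8.26e-08, edgeR). Both were higher in 3 of 3 knockdown libraries. The other chaperones of the base fell: PSMD9 (p27), which binds PSMC3, was at 22.5, 24.8 and 21.5 TPM after knockdown and 28.0, 25.8 and 27.2 TPM in scramble libraries (-0.37, SE 0.062, adjusted p = 1.81e-05, edgeR), and PSMD5 (S5b), a partner of PSMC2, fell by 0.17 (SE 0.057), not called when CRIP1 shRNA replicate 3 was left out (adjusted p = 0.0829) or on log2(TPM + 1), and 0.35 lower with the GC trend removed. By the edgeR calls, only PSMD9 and PSMC3 of these pairs of chaperone and ATPase shared a direction, both lower. For PSMD10 the partner was not called, for PAAF1 it fell, and for PSMD5 it rose. On log2(TPM + 1) PSMC4, PSMC5 and PSMD5 were not called, so no pair had opposite calls there.

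The chaperones of the alpha ring act as pairs. In the pair of PSMG1 and PSMG2, PSMG1 rose by 0.25 (SE 0.050), at 153 ± 1.52 TPM after knockdown and 118 ± 6.38 TPM in scramble libraries (SD, n = 3 each). PSMG2 rose by 0.13 (SE 0.048), at 133 ± 1.31 and 110.4 ± 2.83 TPM, although the call for PSMG2 was lost without scramble replicate 3 (adjusted p = 0.0837). In the pair of PSMG3 and PSMG4 the members differed. PSMG4 rose by 0.43 (SE 0.071, adjusted p = 1.39e-05, edgeR), at 59.4 to 71.3 TPM after knockdown and 34.5 to 39.3 TPM in scramble libraries, and PSMG3 fell by 0.25 (SE 0.067), at 74.2 to 82.2 TPM after knockdown and 79.2 to 91.1 TPM in scramble libraries, which overlap, and it was not called on log2(TPM + 1). PSMF1 (PI31), which binds the core and inhibits it in vitro, was at 21.9, 23.2 and 22.5 TPM after knockdown and 24.8, 25.3 and 26.0 TPM in scramble libraries, lower in 3 of 3 libraries (-0.30, SE 0.041, adjusted p = 9.82e-07, edgeR).

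Summed over a structural group, the chaperones reached 698 ± 16.8 TPM after knockdown and 529.9 ± 14.7 TPM in scramble libraries, and the alpha ring 3440 ± 38.9 and 3082 ± 30.1 TPM (SD, n = 3 each). The base summed to 2719 ± 34.5 TPM after knockdown and 3078 ± 110.3 TPM in scramble libraries. That fall lay in its 4 non-ATPase genes, 1376 ± 26.3 against 1797 ± 64.3 TPM, while the 6 ATPases were at 1343 ± 8.51 against 1281 ± 46.0 TPM. The lid overlapped between groups, at 2409 ± 95.6 and 2412 ± 31.4 TPM. Its largest part was SEM1, not called in the edgeR fit, at 976 ± 84.6 and 872 ± 20.4 TPM. The median TPM over the 9 lid genes was 127 to 139 after knockdown and 221 to 230 in scramble libraries. The beta ring, most of it PSMB4, was at 4288 ± 39.6 and 4050.3 ± 21.0 TPM. In TPM the beta ring was at 105.9% and the ATPases at 104.9% of their scramble means. The median gene also rose there, by 0.12 on log2(TPM + 1). In CPM scaled by TMM, which weight long genes more, the lid was at 86.6% of its scramble mean, the base at 77.3% and the chaperones at 118.3%. The beta ring was at 98.6% and the alpha ring at 102.8%, both with overlapping groups. Per library, the summed TPM of base and lid was 0.679, 0.655 and 0.657 of that of the alpha and beta rings after knockdown, and 0.791, 0.755 and 0.763 in scramble libraries.

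**Figure D4:**
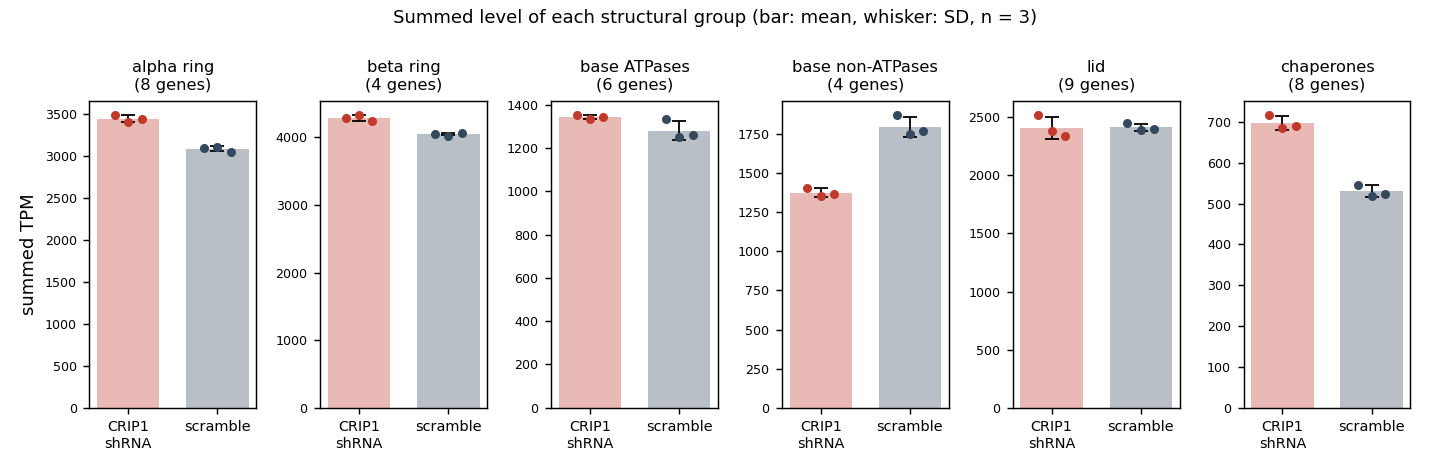
Summed TPM of each structural group, CRIP1 shRNA left of scramble, with a bar for the mean, a whisker for the SD and points for the 3 libraries. The non-ATPases of the base are lower after knockdown (1376 against 1797 TPM), and the chaperones, both rings and the ATPases are higher. The lid, of which SEM1 is the largest part, overlaps. The median of all genes is also higher in TPM, by 0.12 on log2(TPM + 1). In CPM scaled by TMM the groups overlap for both rings and the ATPases.

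Subunits that enter the particle in equal number had very unequal transcript levels in every library. PSMC6 was the lowest ATPase in each group, at 75.1 ± 3.52 TPM after knockdown and 76.4 ± 3.28 TPM in scramble libraries, and PSMC5 the highest, at 367 ± 3.80 and 381 ± 10.2 TPM. Over the 40 members the order of mean levels had a Spearman correlation of 0.957 between the groups, which describes these libraries only. Counted from the most abundant, PSMD2 stood at rank 18 after knockdown against rank 9 in scramble libraries, PSMD13 stood at rank 26 after knockdown against rank 18, and PSMC2 at rank 14 against rank 22.

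The authors' FPKM and counts also give the length by which the counts of each gene were divided in a library. It is not the full transcript length: PSMB3 averaged 483 bases after knockdown, and its longest coding transcript in GENCODE 29 has 773. For 38 of the 40 members that length differed by at most 3% between groups. PSMC2 was assigned 2142, 2247 and 2171 bases after knockdown and 1986, 2093 and 2076 bases in scramble libraries, without overlap. Its change was 0.62 on log2(TPM + 1), where the median of all genes was 0.12, and 0.58 in counts, where that median was 0.011. PSMG4 was assigned 734 ± 61.2 bases after knockdown and 841 ± 74.3 in scramble libraries, with overlap, and its change was 0.75 on log2(TPM + 1) against 0.43 in counts. A shift above 3% was seen in 18.8% of 12358 genes, against 2 of the 40 members. Among the members, 21 overlap a gene on the opposite strand in GENCODE 29, including PSMC2 with DNAJC2 and SLC26A5, PSMD1 with HTR2B, PSMD13 with SIRT3 and PSMG4 with TUBB2B, and the strand setting of the counting is not given. In that annotation (build GRCh38) PSMC2 spans chr7:103344254-103369395, PSMD13 chr11:236546-252984 and PSMD10 chrX:108084207-108091618. GENCODE 29 names 30 pseudogenes after 11 of the members, 13 of them after PSMC1, and none is listed in the table.

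Members on chromosomes 3, 7, 11, 14 and 17 went both ways in the edgeR fit. Of chromosomes with more than 1 member, 2 and 20 held only lower members, and 6 and 18 only higher ones. Among all genes tested 38.1% were lower and 39.4% higher. Of the 5 on chromosome 17, PSMB3, PSMC5, PSMD3 and PSMD11 were lower and PSMD12 higher, and the 3 on chromosome 20 (PSMA7, ADRM1 and PSMF1) were all lower. On chromosome 14 PSMA6 and PSMC1 were higher while PSMA3 and PSMC6 were lower.

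Of 33 tested genes of the proteasome system outside the members, 14 were higher (42.4%), 12 lower (36.4%) and 7 not called, near the 39.4% and 38.1% of all genes tested, with a median log2 fold change of 0.016. Of the catalytic subunits, PSMB6 (caspase-like) averaged 82.2 ± 5.95 TPM after knockdown and 194 ± 3.70 TPM in scramble libraries (SD, n = 3 each; -1.37, SE 0.059), a fall larger than that of any structural subunit, while PSMB5 (chymotrypsin-like) was not called (-0.095, SE 0.048, adjusted p = 0.0795, edgeR). The immunoproteasome subunits PSMB9 and PSMB10 rose by 0.64 and 0.63 (SE 0.049 each). Catalytic and immunoproteasome subunits did not all move alike: of 6 tested, 3 were higher, 2 lower and 1 not called, with a median of 0.061. POMP, the maturation factor of the core, rose by 0.16 (SE 0.045), which turned to -0.15 with the GC trend removed. Of 4 activator genes 3 fell, PSME1 by 0.79, PSME2 by 0.54 and PSME4 by 0.77 (SE 0.040 to 0.045). VCP, the unfoldase that feeds substrates to the proteasome, fell by 0.67 (SE 0.034). Among transcription genes, NFE2L1, NFE2L2 (0.50, SE 0.035) and NGLY1, which deglycosylates NFE2L1 (0.57, SE 0.052), rose, and MAFK, a binding partner, fell by 0.57 (SE 0.066).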

How the data were processed

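Estimated counts, FPKM and TPM per gene and library were taken from the authors' deposited table, whose units are given by its headers. The estimated counts can be fractional, FPKM divides by gene length and library total, and TPM is also scaled to 1 sum per library. The submitters' processing notes name RSEM 1.2.8, HISAT2 2.1.0 and Bowtie2 2.2.5 and the build GRCh38.p13, without roles. The annotation and strand setting are not given in the sources used here. Libraries were made from total RNA with a SMARTER kit, per the labels. Group and replicate came from sample titles, and no batch is labelled.

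The rounded counts entered edgeR 4.0.16 under R 4.3.3 (filterByExpr at a minimum count of 10, TMM, quasi-likelihood, group as sole term), adjusted by Benjamini and Hochberg over 12612 genes, threshold 0.05. The design assumed this unit. Changes are CRIP1 shRNA minus scramble, and SE is the log2 fold change over the square root of F. The common biological coefficient of variation was 3.33%. Levels are deposited TPM, mean ± SD over 3 libraries, with no test. Libraries of 1 group differed by more than sampling noise (mean chi-square per gene 1.62 to 4.15), so none was treated as a repeat deposit.

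Alternatives were the DESeq2 1.42.0 Wald test, a replicate block, upper-quartile scaling, size factors of DESeq2, other filters (none, or at least 50 counts in 3 libraries), limma 3.58.1 on log2(TPM + 1), log2(TPM + 0.1) and log2(FPKM + 1) for genes at 1 or more in 3 libraries, a GC trend removed per library (loess, span 0.5, transcript GC from GENCODE 29, found for 98.6% of genes), a test against a 1.2-fold change, and each library left out. The GC correction also recentres each library. The edgeR fit was also run on simulated counts in which few genes changed. Most genes were called here, so that run does not test the error rate of the fit in these data. Members and lists were chosen with earlier results of these data known. Values in every library are given for members called at 0.5 log2 or more and for the smallest adjusted p in each direction and group, and other genes by fold or range. The pathway genes given are those called at 0.5 log2 or more, with PSMB5, PSMB6, PSME4, POMP and NFE2L1. Promoters are RefSeq's.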

Additional observations from a re-analysis of the deposited data

How the results depend on the processing

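Leaving out each library in turn gave 12 to 14 higher and 18 to 20 lower members, with a median log2 fold change of -0.099 to -0.067. Higher and lower calls were 3 and 3 in the alpha ring (median -0.0073 to 0.029), 1 to 2 and 1 in the beta ring (0.017 to 0.071), 1 to 2 and 7 in the base (-0.21 to -0.17), 2 to 3 and 4 to 5 in the lid (-0.13 to -0.067), and 4 to 5 and 2 to 3 in the chaperones (0.17 to 0.21). Over all genes they were 4809 to 4940 and 4647 to 4846. PSMA2 ranged over -0.055 to 0.0081, positive without scramble replicate 1, PSMB4 over -0.014 to 0.043, negative without CRIP1 shRNA replicate 2, and SEM1 over -0.013 to 0.078, negative without CRIP1 shRNA replicate 1. Where an arm keeps 2 libraries, the spread is shared with the other arm.

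Replicate numbers in the titles did not pair the libraries (correlations of same-numbered deviations 0.046, -0.0088 and -0.013, and only the first replicates correlated best with their own number). With the replicate block, 14 members were higher and 20 lower, no call among the 40 changed, and over all genes 4985 were higher and 4831 lower. DESeq2 size factors also changed no member call.

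Scaling moved the small changes, and the cause was not tested. With upper-quartile scaling, which placed the median of all genes at 0.054, the median was -0.041 over members, 0.057 in the alpha ring, 0.090 in the beta ring (2 higher), -0.14 in the base and 0.23 in the chaperones, and PSMA2 was at 0.022. On log2(TPM + 1), and alike on log2(TPM + 0.1), 12 members were lower, and the median was 0.052 over members, 0.15 in the alpha ring (5 higher, 1 lower), 0.18 in the beta ring (3 higher), -0.040 in the base (4 lower), 0.040 in the lid and 0.32 in the chaperones (1 lower). PSMA2 turned to 0.12, PSMC4 to 0.064, PSMD14 to 0.040 and PSMB5 to 0.035 (0.036 with 0.1 added). On log2(FPKM + 1) the median was 0.0056 over members, 0.11 in the alpha ring (1 lower), 0.14 in the beta ring (3 higher), -0.086 in the base, -0.0062 in the lid and 0.27 in the chaperones, with PSMA2 at 0.070 and PSMC4 at 0.017. With the GC trend removed it was -0.20 over members, -0.13 in the alpha ring, -0.034 in the beta ring, -0.27 in the base (1 higher), -0.21 in the lid and 0.14 in the chaperones, and PSMA1 turned to -0.037, PSMB2 to -0.059, PSMB4 to -0.0092, SEM1 to -0.21 and POMP to -0.15.

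Tested against a 1.2-fold change, which asks for more than a difference from 0, 7 members were higher and 9 lower, against 3420 and 3260 of 12612 genes. The alpha ring then had 0 lower and the beta ring 0 higher in edgeR's test, each also 0 at an unadjusted p below 0.05 (3 and 1 by the DESeq2 Wald test against no change). The base had 1 higher and 3 lower, the lid 1 higher and 4 lower, and the chaperones 3 higher and 1 lower. The stricter filter gave 2 higher beta genes, and the DESeq2 Wald test and no filter each gave 1 higher base gene. Changes below about 0.1 log2 are near the limit of 3 libraries per group, where the standard error over members was 0.034 to 0.072.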
